A study of Mus musculus with 12 samples.

Results

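The comparison described here sets RNA recovered with an antibody against YTHDF1 beside RNA recovered with an antibody against YTHDF2 from the same kind of neuronal culture. It uses 6 of the 12 libraries of the series, 3 of YTHDF1 RIP and 3 of YTHDF2 RIP, chosen by the antibody named in their labels. The other 6 libraries, 3 of YTHDF3 RIP and 3 of input RNA, entered the statistical model and are quoted as a background. RIP (RNA immunoprecipitation) pulls a protein out of a cell lysate with an antibody and sequences the RNA that comes with it. All 6 libraries came from untreated primary hippocampal neurons of newborn C57BL/6 mice of both sexes, kept for 14 days in culture, with the endogenous proteins precipitated in each case. The methods state that Ara-C was added to the cultures to limit the growth of glia, that the replicates were biological ones, and that the combined lysate of 3 wells was divided, within each replicate, among the RIPs of the 3 YTHDF proteins. Libraries of the same number were taken to share a lysate, which their labels do not state. Values with the replicate as a block in the fit are given where they change a call or a count. The block was fitted over all 12 libraries or over the 6 of YTHDF1 and YTHDF2 RIP. Protein-coding genes are described apart from non-coding genes, as the deposited gene classes define them. A precipitation with a control antibody was not analysed here, and no value in these libraries shows which protein the beads held, so each library is taken by its label.

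YTHDF1 and YTHDF2 are cytoplasmic members of the YTH family, which bind N6-methyladenosine (m6A), the commonest internal modification of mRNA, through their YTH domain. m6A is deposited mainly in long internal exons, near stop codons and in 3′ UTRs, often in the sequence GGACT. YTHDF2 is best known for recruiting the CCR4-NOT deadenylase and so shortening the life of bound mRNA, YTHDF1 has been linked to translation, and how far the family members act on the same RNAs has been debated.

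The YTHDF1 RIP libraries held 10037804, 20010605 and 38909592 counts and the YTHDF2 RIP libraries 7019245, 6020072 and 9259893. Counts are of unique fragments per gene. Levels below are counts per 1000000 counts of the library's tested genes (CPM), with that total multiplied by the library's TMM factor. The factors were 0.866, 0.704 and 0.714 in YTHDF1 RIP and 1.07, 1.11 and 0.966 in YTHDF2 RIP, so levels already hold this scaling. They are listed as replicates 1, 2 and 3 of YTHDF1 RIP and then of YTHDF2 RIP. YTHDF1 RIP replicate 1 and YTHDF2 RIP replicate 3 had a count in 35147 and 31334 genes, against 24871 to 28828 in the other 4, and results were recomputed without both. YTHDF1 RIP replicate 3 held less of several abundant nuclear and small RNAs than replicates 1 and 2. Of 55573 annotated genes, 16820 had a mean of at least 10 normalized counts over the 12 libraries and were tested. A gene was called when it differed at least 2-fold with an adjusted p of at most 0.05 in edgeR's quasi-likelihood test. Log2 fold changes are YTHDF1 RIP over YTHDF2 RIP, given with their standard error, so that a negative value means higher in YTHDF2 RIP. RIP libraries measure composition only, so a higher value means a larger share of the precipitated RNA after TMM scaling.

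Neuronal markers were present in both RIPs. The 8 markers of neurons summed to 2158 to 3174 CPM in YTHDF1 RIP and to 1439 to 2074 CPM in YTHDF2 RIP, and the 7 markers of astrocytes to 1193 to 2877 CPM and 1720 to 2428 CPM. Of 6 microglia markers 1 was high enough to test, and it stood at 2.66 CPM or less in each of these libraries. Over the neuron, astrocyte, oligodendrocyte-lineage, microglia and vessel lists, 27 tested markers held 2 calls, both higher in YTHDF1 RIP. They were Tubb3, a neuronal tubulin, at 1.35, whose libraries overlapped between the RIPs, and Kdr, a vessel receptor, at 1.13. The call on Tubb3 was lost without YTHDF1 RIP replicate 2 or 3 or YTHDF2 RIP replicate 1 or 3, with log2 fold changes of 0.79 to 1.36, and that on Kdr was lost whichever single library was left out, at 1.06 to 1.18. The most abundant marker of 4 lists was not called, with log2 fold changes of 0.30 for the neuronal kinase subunit Camk2b, 0.38 for the astrocyte glutamate transporter Slc1a2, -0.31 for the microglial receptor Csf1r and -1.28 for the collagen gene Col1a2. With the replicate as a block in the 6 libraries, Col1a2 was called higher in YTHDF2 RIP at -1.32 (edgeR adjusted p = 0.00569). Olig1, an oligodendrocyte-lineage factor, stood at 1198, 176 and 144 CPM in YTHDF1 RIP and at 244, 134 and 121 CPM in YTHDF2 RIP, so YTHDF1 RIP replicate 1 was far above the other 5 libraries, and its difference did not pass the test (edgeR adjusted p = 0.24). The methods divide the lysate of each replicate among the RIPs, so marker levels compare the RNA recovered with each antibody and not numbers of cells. Numbers of cells were not measured.

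Genes classed as protein-coding took a larger share of the counts in YTHDF1 RIP than in YTHDF2 RIP. Protein-coding genes took 89.3%, 93.0% and 95.9% of the counts in YTHDF1 RIP and 75.1%, 71.2% and 69.7% in YTHDF2 RIP, and the libraries did not overlap. The means were 92.7% ± 3.29 and 72.0% ± 2.78 (SD, n = 3 each), beside 63.1% ± 1.31 in input (n = 3). The difference of 20.7 percentage points had a p of 0.1 in an exact permutation test, two-sided, which is the smallest p that 3 against 3 libraries allow. Most of it lay in genes the deposited class table does not list, which took 3.57% ± 3.12 of YTHDF1 RIP and 21.9% ± 2.94 of YTHDF2 RIP. In input they took 28.7% ± 1.31, so both RIPs had a mean below input. YTHDF3 RIP was nearer to YTHDF1 RIP, with 94.3%, 95.1% and 94.8% of counts in protein-coding genes and 1.16%, 0.797% and 1.08% in unlisted ones. Unlisted genes are not all non-coding: of 276 tested, GENCODE types 14 as protein-coding, beside 86 as miRNA and 31 as ribosomal RNA. The shares of counts by these types are not given here. Among classed non-coding RNA, lncRNAs took 1.49% ± 0.22 and 3.66% ± 0.44. Within classed genes alone, the protein-coding share was 95.6% to 96.8% in YTHDF1 RIP and 91.9% to 92.4% in YTHDF2 RIP, again without overlap.

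Gene by gene, more genes were called higher in YTHDF1 RIP than in YTHDF2 RIP. Of the 16820 genes tested, 1925 (11.4%) were called higher in YTHDF1 RIP and 1031 (6.13%) higher in YTHDF2 RIP. Among 13376 protein-coding genes the numbers were 1525 (11.4%) and 730 (5.46%), and among 3168 non-coding genes 351 (11.1%) and 272 (8.59%). Without regard to any test, all 3 YTHDF1 RIP libraries lay above all 3 YTHDF2 RIP libraries in 3462 genes (20.6%), and the reverse held in 2770 genes (16.5%). The median log2 fold change over all tested genes was 0.03. The balance of the 2 directions depended on the scaling and on 1 library. With the library total as the only scaling, the median moved to -0.44 and the calls turned to 1063 higher in YTHDF1 RIP and 2752 higher in YTHDF2 RIP, so YTHDF1 RIP held 27.9% of the calls in place of 65.1%. With TMM factors from protein-coding genes alone it held 53.9%. Without YTHDF1 RIP replicate 2, 1322 protein-coding and 581 non-coding genes were called higher in YTHDF2 RIP and the share of calls higher in YTHDF1 RIP was 49.3%. All log2 fold changes below are therefore relative to the bulk of the genes tested. The shares of all tested genes called, 11.4% and 6.13%, are the background for the counts of lists and classes below.

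**Figure D1:**
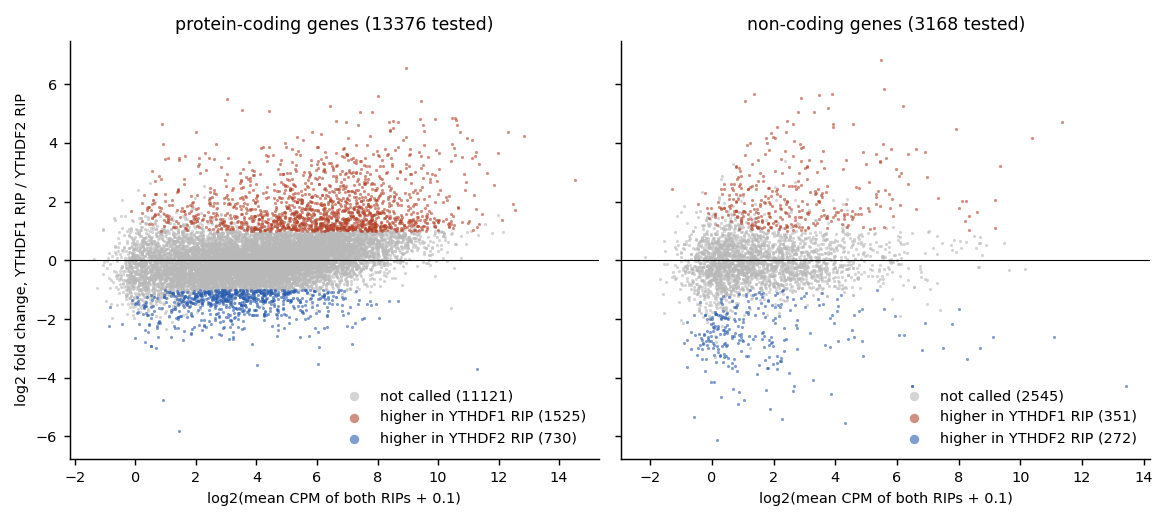
Log2 fold change (YTHDF1 RIP over YTHDF2 RIP) against mean level (log2 of the mean CPM of both RIPs plus 0.1) for protein-coding genes (left) and non-coding genes (right), 1 point per tested gene, coloured where called. Among protein-coding genes 1525 calls lie above and 730 below 0, and among non-coding genes 351 and 272.

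Set beside input, the genes called in the 2 directions had different profiles. The 1525 protein-coding genes higher in YTHDF1 RIP had a median log2 fold change over input of 1.81 in YTHDF1 RIP, 0.06 in YTHDF2 RIP and 0.53 in YTHDF3 RIP, and 1248 of them (81.8%) were called above input in YTHDF1 RIP. The 730 protein-coding genes higher in YTHDF2 RIP had medians of -0.86, 0.63 and 0.06. Of these, 301 (41.2%) were called below input in YTHDF1 RIP and 199 (27.3%) above input in YTHDF2 RIP. The 272 non-coding genes higher in YTHDF2 RIP had medians of -1.47 in YTHDF1 RIP and 1.03 in YTHDF2 RIP, with 146 called below input in the first and 88 above input in the second. These 3 comparisons share their input libraries, and those of YTHDF1 and YTHDF2 RIP use the libraries that defined the calls, so the values are a description.

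The largest differences among protein-coding genes were in favour of YTHDF1 RIP. Kantr (ensembl ENSMUSG00000087403, chrX:152294828-152327495), an X-linked gene listed as protein-coding in the deposited classes and often described as a long non-coding RNA, stood at 677, 1595 and 647 CPM in YTHDF1 RIP and at 11.6, 6.58 and 12.9 CPM in YTHDF2 RIP, beside a mean of 19.2 CPM in input. Its YTHDF1 RIP libraries lay far above the others, with replicate 2 highest. The log2 fold change was 6.55 ± 0.53, or 93.6-fold (edgeR adjusted p = 2.25e-05), and it was 5.95 without YTHDF1 RIP replicate 2. Rbms3, an RNA-binding protein, followed with 316, 645 and 559.9 CPM against 11.7, 7.92 and 11.4 CPM and a log2 fold change of 5.61 ± 0.56 (edgeR adjusted p = 5.63e-05).

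Elavl1, which encodes the AU-rich-element binding protein HuR, stood at 672, 2624 and 789.9 CPM and 38.0, 28.6 and 28.6 CPM. Replicate 2 of YTHDF1 RIP was the highest, yet all 3 were clear of YTHDF2 RIP. Its log2 fold change was 5.42 ± 0.50 (edgeR adjusted p = 3.64e-05) and 4.47 without that replicate. The same replicate carried a large part of the value for Rc3h2, which encodes the RNA-decay factor Roquin-2, at 4.85 (3.96 without it), for Nucks1, a chromatin-associated protein, at 4.83 (3.63 without it) and for Spin4, a histone-mark reader, at 5.12 (3.95 without it). Each kept its call in every single-library omission.

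Further genes of this side included regulators of translation and of protein turnover. Cpeb2, a cytoplasmic polyadenylation factor that acts in translation, stood at 1011, 2906 and 1599 CPM in YTHDF1 RIP and 68.0, 54.4 and 73.2 CPM in YTHDF2 RIP, a log2 fold change of 4.82 ± 0.44 (edgeR adjusted p = 3.44e-05). Klhl15, a substrate adaptor of a ubiquitin ligase, stood at 269, 695 and 357 CPM and 13.4, 12.1 and 13.9 CPM, a log2 fold change of 5.06 ± 0.35 (edgeR adjusted p = 1.16e-05). Both were thus more than 10 times as high in every YTHDF1 RIP library as in any YTHDF2 RIP library. Onecut2, a homeodomain transcription factor, had 5.27, the clustered protocadherin Pcdhb14 had 5.04 and Olfr1564, an olfactory receptor gene of low level, had 5.49. Cdr1 had 5.10, and 5.77 without YTHDF2 RIP replicate 1, with YTHDF2 RIP values of 2.13, 0.449 and 1.01 CPM. The called gene with the highest level was Map1b, the microtubule-associated protein of growing axons, at 29679, 56935 and 36256 CPM against 7068, 5986 and 5499.8 CPM and 2.73 ± 0.31 (edgeR adjusted p = 1.21e-04). Among genes known by predicted names only, 2210408I21Rik had 3.84, Gm38393 had 3.54 and 8030462N17Rik had 3.23.

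The protein-coding genes higher in YTHDF2 RIP had smaller differences, none of those named being over 3.70 in size. Lars2 (ensembl ENSMUSG00000035202, chr9:123366927-123462666), the mitochondrial leucyl-tRNA synthetase, stood at 594, 387 and 90.7 CPM in YTHDF1 RIP and at 3208, 4589 and 6104 CPM in YTHDF2 RIP. All YTHDF2 RIP libraries lay above all YTHDF1 RIP libraries, of which replicate 3 was lowest. The log2 fold change was -3.70 ± 0.61 (edgeR adjusted p = 0.00111). Its libraries stood in the same order as their shares of counts in unlisted genes. These shares were 7.01%, 2.76% and 0.930% in YTHDF1 RIP and 18.5%, 23.0% and 24.1% in YTHDF2 RIP. Fragments that align to several places were counted at each, and whether other RNA adds to the count of Lars2 was not tested. Rtl1, a retrotransposon-derived imprinted gene, stood at 2.31, 3.98 and 1.30 CPM and 25.2, 26.9 and 36.1 CPM, a log2 fold change of -3.56 ± 0.38 (edgeR adjusted p = 8.91e-05). It is the protein-coding gene of the imprinted interval described further on.

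Several further genes passed on this side. Snrnp48, a protein of the minor spliceosome, had 10.8, 14.8 and 5.73 CPM against 127, 134 and 96.6 CPM, a log2 fold change of -3.52 ± 0.32 (edgeR adjusted p = 3.37e-05). Paxbp1 had 39.3, 44.5 and 19.8 CPM against 276, 279.9 and 197 CPM (-2.87 ± 0.28, edgeR adjusted p = 5.04e-05), and Ccnl1, a cyclin associated with pre-mRNA splicing, 13.3, 16.4 and 7.39 CPM against 76.9, 84.6 and 62.5 CPM (-2.60 ± 0.27, edgeR adjusted p = 6.58e-05). In each of them the YTHDF2 RIP libraries were several times higher and did not overlap with YTHDF1 RIP. Eln, which encodes the matrix protein elastin, had -2.94 and Stx3, a membrane-fusion syntaxin, -2.84. The less studied genes Tex9, Fam227a, Msantd2, Lime1 and Hemk1 had -2.68, -2.60, -2.58, -2.57 and -2.43. Of these, Tex9 was -3.30 without YTHDF1 RIP replicate 2 and Fam227a -3.23 without YTHDF1 RIP replicate 1. Rtl1 was -4.15 without YTHDF1 RIP replicate 2. Lime1 shares 92.5% of its exonic bases with Zgpat on the same strand, and fragments there were counted for both genes. Among genes with predicted names, Gm14443 had -2.67, Gm28042 -2.27 and Gm14418 -2.08, and 99.9% of the exonic bases of Gm28042 are shared with Jmjd7 and Pla2g4b.

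**Figure D2:**
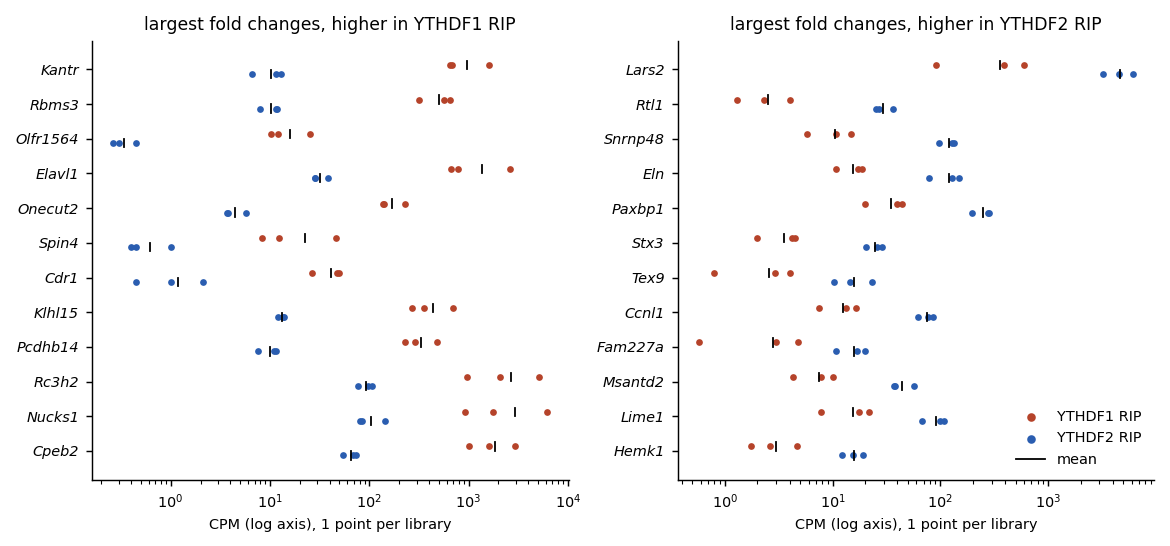
CPM (log axis) in each of the 3 YTHDF1 RIP and 3 YTHDF2 RIP libraries for the 12 protein-coding genes with the largest log2 fold change in each direction, 1 point per library and a tick at the mean. No gene shown has overlapping groups, since the rule for the genes required that, and Kantr reaches 1595 CPM in YTHDF1 RIP against at most 12.9 CPM in YTHDF2 RIP.

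What the rule did not use was the shape of the transcripts, and here the called protein-coding genes stood apart from each other. Genes higher in YTHDF1 RIP had a median transcript of 5562 bases, those higher in YTHDF2 RIP one of 2295 bases and those not called one of 3201 bases, each taken as 1 transcript per gene. The coding sequences had medians of 1860, 1023 and 1356 bases, and the 3′ UTRs 2794, 860 and 1220 bases. The 3′ UTR made up a median of 55.2%, 38.6% and 41.3% of the transcript. The number of exons did not follow the same order, with medians of 8, 9 and 9. Across 13375 genes the log2 fold change had a Spearman correlation of 0.437 with transcript length, 0.304 with coding length and 0.329 with 3′ UTR length, and of 0.033 with the number of exons. These correlations are across genes, which are not independent replicates.

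With the genes in 5 bins of equal number by exonic length, the share of protein-coding genes called higher in YTHDF1 RIP was 3.96%, 5.72%, 8.90%, 12.8% and 25.6% from the shortest to the longest. The share called higher in YTHDF2 RIP was 6.73%, 6.69%, 5.98%, 5.01% and 2.88%. In 5 such bins by 3′ UTR length the first went from 3.26% to 28.0% and the second from 8.92% to 2.85%. The correlation with exonic length, 0.315 over all 6 libraries, was positive in each of the 9 pairs of a YTHDF1 RIP and a YTHDF2 RIP library, from 0.137 to 0.395. In non-coding genes it was 0.042, and from -0.183 to 0.196 over the 9 pairs, with the pairs of YTHDF1 RIP replicate 2 below 0 and the others above. Level differed between the called groups too. Genes higher in YTHDF1 RIP had a median of 873 normalized counts, those higher in YTHDF2 RIP 139.8 and those not called 238, and the log2 fold change had a correlation of 0.353 with the mean level. The part of level in the length pattern was not tested. With a smooth trend on exonic length taken out of the fit, 1193 protein-coding genes were called higher in YTHDF1 RIP and 832 higher in YTHDF2 RIP.

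**Figure D3:**
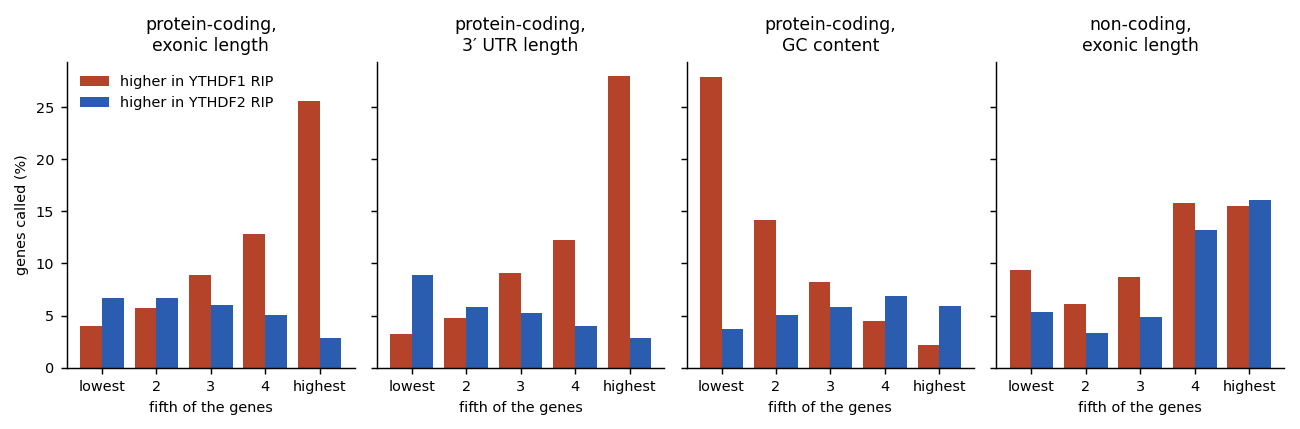
Percentage of tested genes called higher in YTHDF1 RIP (red) or YTHDF2 RIP (blue) in 5 bins of equal gene number by exonic length, 3′ UTR length and GC content of the transcript (protein-coding) and by exonic length (non-coding, right). In protein-coding genes the red bars go from 3.96% to 25.6% with exonic length and from 28.0% to 2.21% with GC content.

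Base composition differed as well. The GC content of the transcript had a median of 44.4% in protein-coding genes higher in YTHDF1 RIP, 51.4% in those higher in YTHDF2 RIP and 50.8% in those not called, and that of the 3′ UTR 38.9%, 46.4% and 45.4%. The AU-rich pentamer ATTTA, searched on the sense strand of 3′ UTRs of at least 50 bases, occurred at a median of 2.27, 0.876 and 1.21 per kb. GGACT, the commonest letters of the m6A consensus, was searched on the sense strand of the whole transcript and occurs in 92.8% of the 13375 protein-coding transcripts. Genes higher in YTHDF1 RIP held a median of 5 of them, those higher in YTHDF2 RIP 2 and those not called 3. Per kb they held fewer, with medians of 0.904, 1.06 and 1.06, and the correlation of the log2 fold change with GGACT per kb was -0.078. A match is a run of letters and not a methylated site, and methylation was not measured in these libraries.

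Lists of synaptic, receptor and channel genes had medians above that of all genes. Of 24 synaptic adhesion genes, 10 were called higher in YTHDF1 RIP and 0 higher in YTHDF2 RIP, with a median log2 fold change of 0.99 beside 0.03 over all tested genes. Lrrtm4, a postsynaptic leucine-rich-repeat protein, stood at 171, 132 and 95.9 CPM and 21.3, 11.2 and 14.5 CPM (3.08 ± 0.38, edgeR adjusted p = 1.69e-04), Nlgn3, a neuroligin, at 2.39 and the neurexin Nrxn3 at 2.31. The count depended on 1 library and on the scaling. With YTHDF1 RIP replicate 3 left out, 4 of the 24 were called and Nrxn3 was 1.68. With the length trend taken out of the fit 5 were called (median 0.57), and with library size as the only scaling 4. Nlgn3 shares 41.2% of its exonic bases with the predicted gene Gm21986.

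Of 22 glutamate receptor genes 5 (22.7%) were called higher in YTHDF1 RIP and 0 higher in YTHDF2 RIP (median 0.63). Of 14 GABA receptor genes the numbers were 5 (35.7%) and 0 (median 0.80). With the replicate as a block in the 6 libraries, 1 glutamate receptor gene was called higher in YTHDF2 RIP. Grm5, a metabotropic glutamate receptor, stood at 1599.8, 3975 and 2882 CPM and 207, 214 and 279.9 CPM, a log2 fold change of 3.59 ± 0.34 (edgeR adjusted p = 4.45e-05). Grin2b, an NMDA receptor subunit, stood at 3919.7, 5819 and 9192 CPM and 1096, 929 and 1167 CPM, a log2 fold change of 2.57 ± 0.34 (edgeR adjusted p = 2.61e-04). YTHDF1 RIP was above YTHDF2 RIP in every library for both, and the kainate receptor subunit Grik2 had 2.32. Gabrg3, Gabrb2, Gabra2 and Gabrg1, subunits of the GABA-A receptor, had 3.60, 2.65, 1.68 and 1.95, with 1.00 for Gabra2 without YTHDF1 RIP replicate 2. Among 72 voltage-gated channel genes, 18 (25%) were called higher in YTHDF1 RIP and 1 (1.39%) higher in YTHDF2 RIP (median 0.56). The potassium channel genes Kcnb2, Kcnj2 and Kcna3 had 3.56, 3.24 and 3.11. A further channel gene passed in favour of YTHDF2 RIP without YTHDF1 RIP replicate 1, making 2. The channel with the highest level, Cacna1e, had 1.47 and lost its call without YTHDF1 RIP replicate 3 (0.69) or without YTHDF2 RIP replicate 1 (1.49) or 2 (1.24).

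Of 15 postsynaptic scaffold genes 3 (20%) were called, all higher in YTHDF1 RIP (median 0.68). With the length trend taken out 1 was called and the median was -0.07, and with library size as the only scaling 1 was called in each direction. They were Dlgap2 at 1.66, Dlg4, which encodes PSD-95, at 1.43 and Homer1 at 1.34, and 0 of the 15 were called without YTHDF1 RIP replicate 3, where the 3 had 1.24, 0.94 and 0.96. Dlg4 was also lost without YTHDF2 RIP replicate 1 or 2. Shank1, the scaffold with the highest level, stood at 1258, 872 and 1453 CPM and 1103, 988 and 1265 CPM. Its libraries overlapped and the log2 fold change of 0.09 ± 0.23 did not pass (edgeR adjusted p = 0.808), with its sign turning under several scalings. Camk2a, a kinase of the synapse with a dendritic mRNA, stood at 697, 446 and 1197 CPM and 1335, 554 and 1500.3 CPM, again with overlap (-0.53 ± 0.51, edgeR adjusted p = 0.485). Map2, the dendritic microtubule-associated protein, was called higher in YTHDF1 RIP at 2889.9, 4601 and 5160.4 CPM against 1596, 1114 and 1526 CPM (1.58 ± 0.29, edgeR adjusted p = 0.00221). Of the 8 RNAs followed by the study 3 were called, all higher in YTHDF1 RIP (median 0.53), beside 1 with the length trend taken out and 2 in each direction with library size as the only scaling. Besides Map2 and Homer1, Actb was called at 1.79 (1.06 without YTHDF1 RIP replicate 2) and Bdnf, Eif5a and Igfbp2 were not, at 0.97, -0.51 and -1.07. Igfbp2 passed without YTHDF1 RIP replicate 2, at -1.71, and with the replicate as a block in the 6 libraries, at -1.26 (edgeR adjusted p = 0.013).

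Among 21 immediate early genes 2 were called, both higher in YTHDF1 RIP (median 0.36). That is 9.52% of the list, beside 11.4% of all tested genes. Btg2, a regulator of deadenylation, had 2.17 and Nr4a3, a nuclear receptor, 1.39, and the call on Nr4a3 was lost without YTHDF1 RIP replicate 3 (1.05) or YTHDF2 RIP replicate 1 (1.26) or 2 (1.29). Of 30 cytoskeleton genes 6 (20%) were called higher in YTHDF1 RIP and 1 (3.33%), the actin-binding Pfn2 at -1.03, higher in YTHDF2 RIP (median 0.51). Pfn2 was not called without YTHDF1 RIP replicate 1 (-0.93) or YTHDF2 RIP replicate 1 (-0.88), and 3 genes of the list were called higher in YTHDF2 RIP without YTHDF1 RIP replicate 2. Map4, a microtubule-associated protein, had 1.79. With the replicate as a block in the 6 libraries 10 of the 30 were called higher in YTHDF1 RIP.

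Clustered protocadherins, chromatin modifiers and zinc finger genes had medians above 0. All 56 clustered protocadherins, cell-surface proteins of neuronal identity, had a log2 fold change above 0, and 20 were called higher in YTHDF1 RIP (median 0.81). Pcdhb15 stood at 79.2, 121 and 60.4 CPM and 4.78, 6.13 and 4.49 CPM (4.08 ± 0.28, edgeR adjusted p = 1.16e-05) and Pcdhb13 at 3.86, while Pcdhgc3, the member with the highest level, had 0.63 ± 0.27 and was not called (edgeR adjusted p = 0.115). Without YTHDF2 RIP replicate 3, 40 of the 56 were called. Members of the alpha and gamma clusters share their constant exons, 38.5% of the exonic bases of Pcdhgc3 being shared, and a fragment in a shared exon was counted for each gene, so these 56 are not 56 separate measurements.

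Of 55 chromatin modifiers 21 were called higher in YTHDF1 RIP and 0 higher in YTHDF2 RIP (median 0.81). Leaving out YTHDF1 RIP replicate 2, 1 was called higher in YTHDF2 RIP, as was 1 with the replicate as a block in the 6 libraries. Crebbp, the acetyltransferase CBP, stood at 2955, 3574 and 3274 CPM and 443, 366 and 454 CPM, a log2 fold change of 2.96 ± 0.19 (edgeR adjusted p = 9.57e-06). Arid1b, a subunit of the BAF remodelling complex, had 2.38 and Kmt2a, a histone H3K4 methyltransferase, 2.10. The replicates of Crebbp were close to each other, and the groups lay far apart. These are long genes, with a median exonic length of 12068 bases, and 7 of the 55 were called once the length trend was taken out. Of 344 numbered zinc finger genes (symbols of the form Zfp plus digits), 90 were called higher in YTHDF1 RIP and 9 higher in YTHDF2 RIP (median 0.50). Zfp960, Zfp97 and Zfp26 had 3.85, 3.78 and 3.78, the last 3.06 without YTHDF1 RIP replicate 2. Zfp871, the member with the highest level, had 3.37 and 2.56 without that replicate. On the other side Zfp932, Zfp692 and Zfp511 had -1.84, -1.60 and -1.54. The 9 became 14 without YTHDF1 RIP replicate 2 and 14 without replicate 3.

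**Figure D4:**
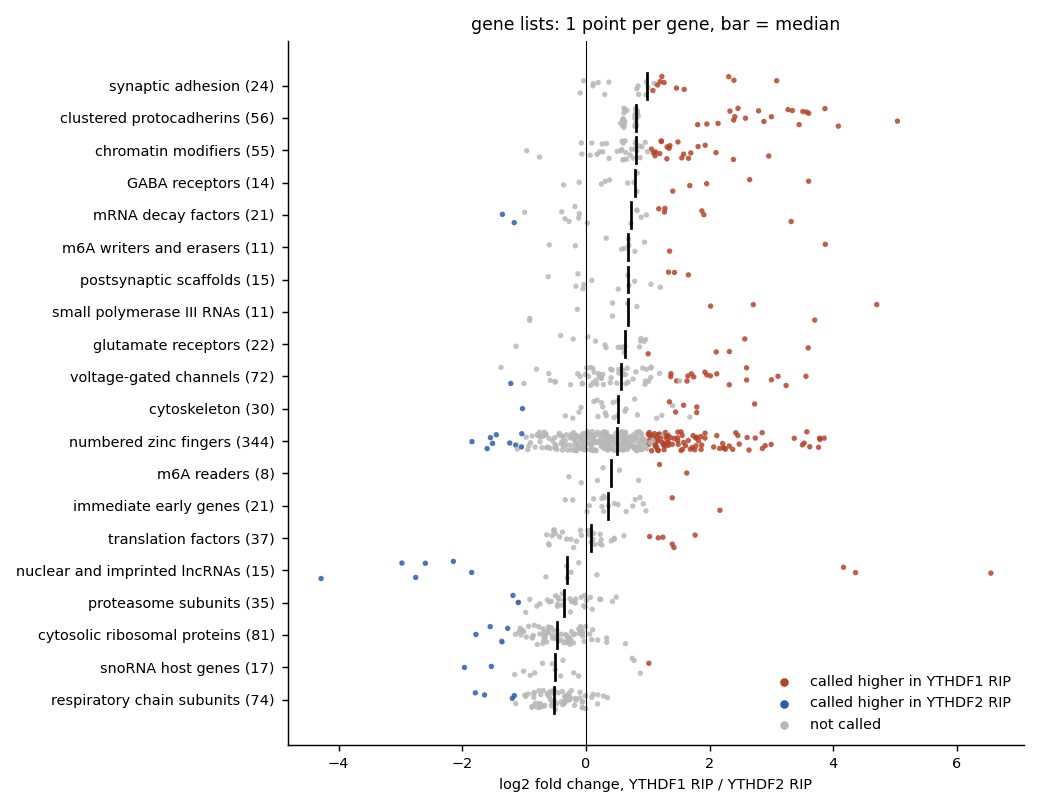
Log2 fold change (YTHDF1 RIP over YTHDF2 RIP) of each tested member of 20 gene lists, 1 point per gene, coloured where called, with a bar at the list's median and the number tested in brackets. Medians run from 0.99 for synaptic adhesion genes to -0.51 for respiratory chain subunits.

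Ribosomal protein, respiratory chain and proteasome genes had medians below 0. Of 81 cytosolic ribosomal protein genes 4 were called higher in YTHDF2 RIP and 0 higher in YTHDF1 RIP, with 7 of the 81 above 0 and a median of -0.47. The 4 are 4.94% of the list, beside 6.13% of all tested genes. Rpl22 stood at 18.5, 32.3 and 12.3 CPM and 73.2, 81.3 and 61.7 CPM, a log2 fold change of -1.78 ± 0.30 (edgeR adjusted p = 0.00119). Rps14 at -1.55 was lost without YTHDF2 RIP replicate 2 (-1.39), and Rps15a at -1.36 without YTHDF1 RIP replicate 1 or 3 or YTHDF2 RIP replicate 1 or 2, where it had -1.08 to -1.34. Without YTHDF1 RIP replicate 2 Rps15a had -2.23. Rpl4, the member with the highest level, had 0.09 ± 0.32. The count for the list depended on 1 library and on the pairing of the libraries. The list summed to 1352, 3390 and 835 CPM in YTHDF1 RIP and to 2488, 3305 and 2167 CPM in YTHDF2 RIP, so replicate 2 was the highest in both RIPs, that of YTHDF1 RIP the highest of all, and the other YTHDF1 RIP libraries were the lowest. Without that replicate 59 of the 81 were called higher in YTHDF2 RIP, and with the replicate as a block 4 of the 81 over 12 libraries and 16 over the 6. In input the sum was 8176 to 11780 CPM, so ribosomal protein mRNAs were below input in both RIPs. Leaving out any other 1 of the 6 libraries, 1 to 3 of the 81 were called.

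The count for respiratory chain subunits moved with the same library. Of 74 genes 4 were called higher in YTHDF2 RIP and 0 higher in YTHDF1 RIP (median -0.51), 5.41% of the list beside 6.13% of all tested genes. Without YTHDF1 RIP replicate 2 there were 37, and with the replicate as a block 6 over 12 libraries and 8 over the 6. The list summed to 1388, 2201 and 1646 CPM in YTHDF1 RIP and to 2232, 2276 and 2177 CPM in YTHDF2 RIP. Ndufb5, Ndufa5 and Ndufv1, all of complex I, had -1.79, -1.64 and -1.19, and Atp5a1 of the ATP synthase, the member with the highest level, had -0.06 ± 0.18, with values overlapping. Of 35 proteasome subunits 2 (5.71%) were called higher in YTHDF2 RIP (median -0.36), Psmb4 at -1.18 and Psmb10 at -1.09, and 8 without YTHDF1 RIP replicate 2 but 0 without YTHDF2 RIP replicate 2 and 1 without YTHDF1 RIP replicate 1 or 3. Psmb4 had -0.98 without YTHDF2 RIP replicate 2, and Psmb10 was lost without YTHDF1 RIP replicate 1 or 3 or any 1 of the YTHDF2 RIP libraries, at -1.01 to -1.15. Psmd2, the subunit with the highest level, had 0.00. With the replicate as a block in the 6 libraries 5 of the 35 were called higher in YTHDF2 RIP.

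Called m6A reader and writer genes stood on the YTHDF1 side, and called mRNA decay factors on both sides. Of 8 m6A reader genes 2 were called, both higher in YTHDF1 RIP. Ythdf3 stood at 141, 269.9 and 231 CPM and 70.8, 65.0 and 71.4 CPM (1.63 ± 0.22, edgeR adjusted p = 2.91e-04) and Ythdf2 at 85.1, 108 and 98.6 CPM and 42.3, 44.7 and 40.8 CPM (1.19 ± 0.15, edgeR adjusted p = 2.20e-04). Neither overlapped between the RIPs. The Ythdf1 mRNA stood at 70.2, 52.2 and 95.6 CPM and 57.3, 54.4 and 68.5 CPM, with overlap (0.28 ± 0.21, edgeR adjusted p = 0.371). These are mRNA levels in the precipitate and say nothing of which protein was on the beads. Of 11 writer and eraser genes 2 (18.2%) were called higher in YTHDF1 RIP, and 4 without YTHDF1 RIP replicate 1. Rbm15, an adaptor of the m6A methyltransferase complex, stood at 692, 1074 and 532 CPM and 55.3, 47.3 and 54.5 CPM, a log2 fold change of 3.87 ± 0.26 (edgeR adjusted p = 1.15e-05), and Zc3h13, another subunit, had 1.35.

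Among the 21 mRNA decay factors 6 (28.6%) were called higher in YTHDF1 RIP and 2 (9.52%) higher in YTHDF2 RIP (median 0.73). Cnot6l, a catalytic deadenylase of CCR4-NOT, had 3.32, the deadenylation factor Pan3 1.91 and the decay helicase Ddx6 1.87. On the other side stood Cnot7, a further CCR4-NOT deadenylase, at 15.1, 25.5 and 17.1 CPM against 48.4, 53.1 and 46.0 CPM (-1.35 ± 0.21, edgeR adjusted p = 6.99e-04), and the decapping factor Dcp1b at -1.16, which was not called without YTHDF2 RIP replicate 2 (-0.96). The catalytic subunits Cnot6l and Cnot7 of 1 complex thus stood on opposite sides. Of 37 translation factors 6 (16.2%) were called higher in YTHDF1 RIP, beside 11.4% of all tested genes, and 0 higher in YTHDF2 RIP. Their median was 0.08, beside 0.03 over all tested genes. The called members included the cap-binding Eif4e at 1.76, the poly(A)-binding Pabpc1 at 1.42 and Eif5b at 1.40. Eif4g1, the translation factor with the highest level, had 1.03 and was not called without YTHDF1 RIP replicate 3 (0.81) or YTHDF2 RIP replicate 1 (0.99) or 2 (0.96), or with the replicate as a block in the 6 libraries (0.98, edgeR adjusted p = 0.0124). Leaving out YTHDF1 RIP replicate 2, 3 of the 37 were called higher in YTHDF2 RIP.

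Counts of 0 in these lists were read beside weaker criteria. At an unadjusted p under 0.05, edgeR placed 1 of the 55 chromatin modifiers, 1 of the 11 writers and erasers and 3 of the 37 translation factors higher in YTHDF2 RIP, and 1 of the 35 proteasome subunits higher in YTHDF1 RIP. For the protocadherins, synaptic adhesion genes, glutamate and GABA receptors, scaffolds, immediate early genes, m6A readers and polymerase III RNAs this number was 0 in YTHDF2 RIP, and for ribosomal protein and respiratory chain genes it was 0 in YTHDF1 RIP. DESeq2 called 0 genes in each of these directions. Of 3 histone genes tested 0 were called by either tool (median -0.57, and -0.78 for H3f3b, the most abundant), with 2 higher in YTHDF2 RIP at an unadjusted p under 0.05 in edgeR, and 2 were called higher in YTHDF2 RIP without YTHDF1 RIP replicate 2. Astrocyte, oligodendrocyte-lineage and microglia markers held 0 calls by either tool and 0 at an unadjusted p under 0.05 in edgeR.

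Cdr1os had the highest level among non-coding genes called higher in YTHDF1 RIP. Cdr1os, the X-linked locus that also gives rise to the circular RNA CDR1as, stood at 6152, 4763 and 4312 CPM in YTHDF1 RIP and at 278, 171 and 138 CPM in YTHDF2 RIP, beside 554 CPM in input. Every YTHDF1 RIP library was more than 10 times as high as any YTHDF2 RIP library. The log2 fold change was 4.69 ± 0.52 (edgeR adjusted p = 9.65e-05), and counts per gene cannot tell linear from circular RNA. Cdr1 lies opposite to it, and the counting used strand. Snhg11, a snoRNA host transcript of neurons that the deposited classes list as protein-coding, stood at 12091, 10708 and 6153 CPM and 477, 277 and 656 CPM, a log2 fold change of 4.36 ± 0.55 (edgeR adjusted p = 2.08e-04). Snhg14, the host transcript of the imprinted Snrpn region, had 4.17. Snord64, in the same region, stood at 106, 197 and 124 CPM and 4.92, 2.09 and 4.15 CPM (5.25 ± 0.37, edgeR adjusted p = 1.16e-05), and all of its 67 bases lie in an exon of Gm38393, called above, so fragments of Gm38393 were counted for it too.

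The other non-coding genes with large differences on this side have predicted names. Gm47033 (ensembl ENSMUSG00000111990) stood at 12.5, 200.4 and 53.4 CPM and 0.532, 0.748 and 1.01 CPM, a log2 fold change of 6.83 ± 0.94 (edgeR adjusted p = 3.41e-04) and of 5.35 without YTHDF1 RIP replicate 2. Gm37499, Gm37464 and Gm48482 had 5.82, 5.66 and 5.63, and Gm47982 and Gm45791 5.19 and 5.05. Without YTHDF1 RIP replicate 2, Gm37499 had 5.04 and Gm37464 4.27. Without YTHDF2 RIP replicate 2, Gm37464 had 6.29, and without YTHDF2 RIP replicate 3, Gm47982 had 6.50.

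Malat1 had the highest level among non-coding genes called higher in YTHDF2 RIP. Malat1 (ensembl ENSMUSG00000092341, chr19:5795690-5802672), the main RNA of nuclear speckles, stood at 1515, 1395 and 342 CPM in YTHDF1 RIP and at 21058, 14612 and 27659 CPM in YTHDF2 RIP, beside 8171 CPM in input. YTHDF2 RIP lay above input and YTHDF1 RIP below it, with YTHDF1 RIP replicate 3 the lowest of all. The log2 fold change was -4.28 ± 0.55, or 19.5-fold higher in YTHDF2 RIP (edgeR adjusted p = 2.30e-04). Miat, another nuclear lncRNA, stood at 103, 153 and 22.0 CPM and 789, 897 and 499.7 CPM, a log2 fold change of -2.98 ± 0.53 (edgeR adjusted p = 0.0017), and -3.59 without YTHDF1 RIP replicate 2. Neat1, the scaffold of paraspeckles, had -2.75 (edgeR adjusted p = 0.0214) and was not called without YTHDF2 RIP replicate 2, at -2.21 with an adjusted p of 0.0842. Of the 15 nuclear and imprinted lncRNAs in the list, 3 were called higher in YTHDF1 RIP and 6 higher in YTHDF2 RIP (median -0.31). Those in favour of YTHDF1 RIP were Kantr, Snhg11 and Snhg14, and those in favour of YTHDF2 RIP were Ftx, Malat1, Meg3, Miat, Mirg and Neat1.

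Other genes on this side were less abundant. Gm21781 stood at 1.16, 1.35 and 0.252 CPM and 36.0, 35.9 and 45.4 CPM, a log2 fold change of -5.54 ± 0.49 (edgeR adjusted p = 2.92e-05) and of -6.18 without YTHDF1 RIP replicate 2. The processed pseudogenes Gm12896 and Gm12895 had -4.29 and -4.28 with nearly the same counts in every library, and since every alignment of a fragment was counted they may not be separate measurements. Mir6240 had -4.55 (-5.32 without YTHDF1 RIP replicate 1), 6720427I07Rik -4.07 (-5.27 without YTHDF1 RIP replicate 2) and Gm12940 -3.27. Gm47283, on chromosome Y, had -3.36 and -4.14 without YTHDF1 RIP replicate 1. By class, 112 (13.59%) of 824 lncRNAs were called higher in YTHDF1 RIP and 96 (11.65%) higher in YTHDF2 RIP. In the same order, calls took 156 (8.6%) and 39 (2.15%) of 1815 pseudogenes. They took 57 (17.12%) and 112 (33.63%) of 333 loci of the provisional class TEC, and 18 (17.48%) and 19 (18.45%) of 103 miRNA-annotated genes. Processed pseudogenes, copies of spliced mRNAs, made up most pseudogenes (118 and 23 of 1551). The processed pseudogenes had 87 and 289 calls without YTHDF1 RIP replicate 2, and 94 and 57 with the replicate as a block in the 6 libraries. Fragments of a parent mRNA that also align to the copy were counted for it.

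Small RNAs made by RNA polymerase III varied more within YTHDF1 RIP than between the RIPs. The list summed to 7714, 7942 and 969 CPM in YTHDF1 RIP and to between 3205 and 6263 CPM in YTHDF2 RIP. In input the sum was 100600 to 112700 CPM, so the list as a whole was far below input in both RIPs. Of 11 genes 4 were called higher in YTHDF1 RIP and 0 higher in YTHDF2 RIP. Rny3, a Y RNA, stood at 76.8, 81.8 and 7.64 CPM and 1.99, 4.49 and 6.17 CPM (3.70, edgeR adjusted p = 0.00402), with YTHDF1 RIP replicate 3 just above YTHDF2 RIP. Vaultrc5, a vault RNA with no deposited class, had 4.70, with 4.03 without YTHDF1 RIP replicate 2 and 6.21 without YTHDF2 RIP replicate 3. The call on Rny1 at 2.71 was lost without YTHDF1 RIP replicate 1 or 2 or any 1 of the YTHDF2 RIP libraries, where it had 2.22 to 3.06, and the signal recognition particle RNA Rn7s2 at 0.43 was not called. Without YTHDF1 RIP replicate 1, 2 of the 11 were called higher in YTHDF1 RIP and 2 higher in YTHDF2 RIP, and 2 were called higher in YTHDF1 RIP without YTHDF1 RIP replicate 2 or without YTHDF2 RIP replicate 1 or 2. With the replicate as a block over 12 libraries 2 of the 11 were called, and Rny1 was not (2.56, edgeR adjusted p = 0.0774), nor over the 6 (2.17, edgeR adjusted p = 0.14). Of 17 snoRNA host genes 1 (5.88%) was called higher in YTHDF1 RIP and 2 (11.8%) higher in YTHDF2 RIP (median -0.50). The 2 were Snhg17 at -1.97 and Snhg5 at -1.53, the latter not called without YTHDF2 RIP replicate 2 (-1.19). On the YTHDF1 side, 1 of the 2 tested genes with the symbol Snhg4, at 1.02, was not called without YTHDF1 RIP replicate 2 or 3 or YTHDF2 RIP replicate 2, nor with the replicate as a block in the 6 libraries.

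Many of the called miRNA-annotated genes lie within a host gene. A count for such a gene is of any fragment that overlaps the annotated hairpin, so it does not measure the mature miRNA. The 6 mature miRNAs written out below belong to 3 genes among those highest in YTHDF1 RIP and to 3 of the imprinted interval higher in YTHDF2 RIP, and are shown to identify the 2 sets. Sequences are from RefSeq (GRCm38.p6), 5′ to 3′, with the seed, bases 2 to 8, in capitals.
mmu-miR-568: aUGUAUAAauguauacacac
mmu-miR-5129-3p: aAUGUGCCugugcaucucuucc
mmu-miR-7673-5p: uUUGACUGagagguaaggaaug
mmu-miR-433-3p: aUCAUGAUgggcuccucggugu
mmu-miR-431-5p: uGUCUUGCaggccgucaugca
mmu-miR-770-5p: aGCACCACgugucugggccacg
Of the 37 called miRNA-annotated genes, 31 had a sequence in the RefSeq table, and the 6 sequences have 6 different seeds. Of the 18 higher in YTHDF1 RIP, 15 lie on the same strand within a protein-coding host gene that was itself called higher in YTHDF1 RIP, 14 of them in an exon. Mir568 (chr16:43640655-43640737) lies in a UTR of Zbtb20, a zinc finger transcription factor, and had 3.95 beside 4.23 for its host. Mir5129 (chr2:45023100-45023177) had 3.48 beside 4.17 for Zeb2, with 5 of its 78 bases in an exon, and Mir7673 (chrX:94274574-94274637), in a UTR of Klhl15, had 5.54 beside 5.06. Fragments in a shared exon were counted for the host and for the miRNA gene. Without YTHDF1 RIP replicate 2 the values were 2.69 for Mir5129 and 4.90 for Mir7673, with 3.43 for Zbtb20 and 3.26 for Zeb2. An exception was Mir9-2 at 1.81, in an exon of C130071C03Rik, whose own value was -0.14. Mir9-2 had 2.41 without YTHDF2 RIP replicate 1. Its call was lost without YTHDF1 RIP replicate 1 and YTHDF2 RIP replicate 3 together, at 1.12 (edgeR adjusted p = 0.129).

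Of the 19 miRNA-annotated genes higher in YTHDF2 RIP, 9 lie in an exon of a host gene on the same strand, 8 of these in a host called the same way, 4 lie in an intron only and 6 have no host on their strand. Of the 19, 8 lie in the imprinted interval between Dlk1 and Dio3, chr12:109452823-110281097, which expresses the lncRNAs Meg3, Rian and Mirg and a large miRNA cluster from the maternal chromosome and Rtl1 from the paternal one. The interval was chosen after its values were seen, so they are given as a description. All 8 miRNA-annotated genes tested there were called higher in YTHDF2 RIP, with a median log2 fold change of -3.33, against 11 of 95 elsewhere, where 18 were called higher in YTHDF1 RIP and the median was -0.11. Of all 23 genes tested in the interval, 16 were called, all higher in YTHDF2 RIP, 21 were below 0 and the median was -2.36. Mir433 (chr12:109591715-109591838) stood at 0.578, 0.356 and 0.0721 CPM and 5.98, 7.03 and 5.61 CPM, a log2 fold change of -4.43 ± 0.56 and of -3.83 without YTHDF1 RIP replicate 3. Mir431 had -3.47 and Mir432 -3.83. Both, with Mir433, lie opposite to the coding sequence of Rtl1 on the other strand. Mir432 had no count in YTHDF1 RIP replicate 3 and was not called without YTHDF1 RIP replicate 1 (-3.43) or YTHDF2 RIP replicate 3 (-3.57), and it was -8.19 without YTHDF1 RIP replicate 2 and -3.20 without replicate 3. Mir540 at -3.29 was not called without YTHDF1 RIP replicate 3 (-2.71) and was -4.77 without YTHDF1 RIP replicate 1.

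Host transcripts of the interval were measured with more counts. Meg3 (chr12:109541001-109571726) stood at 867, 756 and 216 CPM in YTHDF1 RIP and at 4255, 3506 and 3364 CPM in YTHDF2 RIP, with input at 1833 CPM between them. The groups did not overlap, and the log2 fold change was -2.60 ± 0.52 (edgeR adjusted p = 0.00347). Mir770 and Mir1906-1, which lie in exons of Meg3, had -2.70 and -2.36, with -3.29 for Mir770 without YTHDF1 RIP replicate 2 and -3.06 for Mir1906-1 without YTHDF1 RIP replicate 1. Mirg had -2.14, and -2.80 without YTHDF1 RIP replicate 1. Rian did not follow, at 490.2, 424 and 455 CPM and 409.9, 409.7 and 392 CPM (0.18 ± 0.20, edgeR adjusted p = 0.566), although Mir341 and Mir1188, annotated in its introns, had -3.03 and -3.37. Mir1188 had -4.49 without YTHDF1 RIP replicate 2 and -2.76 without replicate 3. Rian, whose exonic length is 31981 bases, had -1.11 with the length trend taken out, which passed as higher in YTHDF2 RIP (edgeR adjusted p = 0.00319). Outside the interval, Mir124a-1 and Mir3078, both in an exon of Mir124a-1hg, had -3.26 and -3.50 beside -2.54 for the host. They had -3.97 and -4.51 without YTHDF1 RIP replicate 2, and without replicate 3 Mir124a-1 had -2.66.

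**Figure D5:**
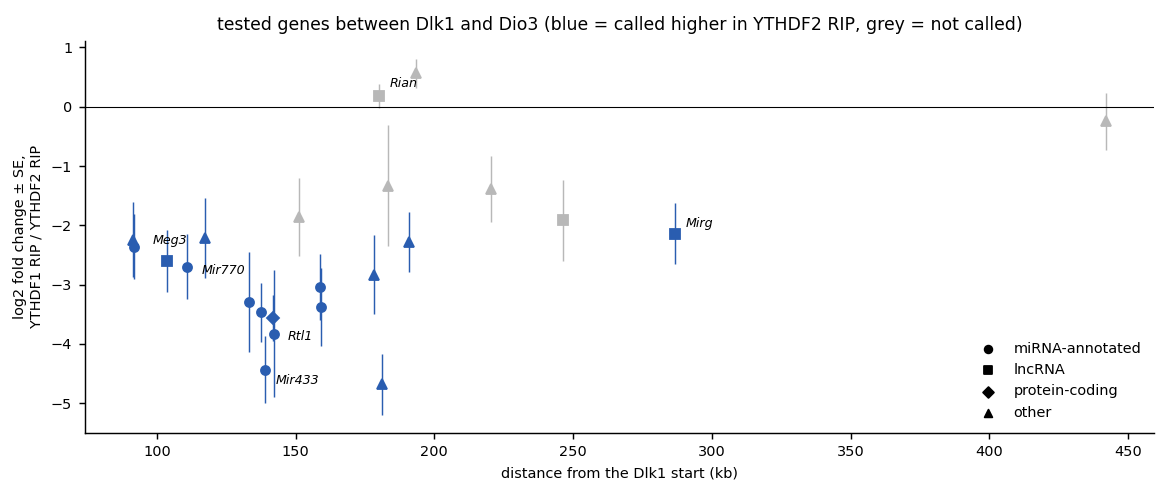
Log2 fold change (YTHDF1 RIP over YTHDF2 RIP) with its standard error for the 23 tested genes between Dlk1 and Dio3, against distance from the start of Dlk1 in kb, with the marker giving the gene class. 16 genes are called (blue), all below 0, and Rian lies at 0.18.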

How the data were processed

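RNA was precipitated with an antibody against YTHDF1 or YTHDF2 from lysates of hippocampal neurons, and strand-specific libraries with unique molecular identifiers (UMIs) were made from it. Per the labels and the study's methods, the authors removed adapters with cutadapt 3.4, aligned reads to mm10 (GRCm38, Ensembl release 97) with STAR 2.7.7a, removed duplicates with UMI-tools 1.1.1 and counted fragments per gene with featureCounts 2.0.1. That counting used strand and counted a fragment for every gene it overlapped and every place it aligned to, so overlapping genes and near-identical copies share counts. The deposited counts per gene are raw. A second deposited table, of the authors' DESeq2 comparison of YTHDF1 RIP with input, gave the class of each gene. Its column of mean normalized signal, deposited by the authors, served only to read that table, and its fold changes and p-values were not used, nor were the like tables for YTHDF2 and YTHDF3 RIP.

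Genes whose median-ratio normalized count averaged 10 or more over 12 libraries were fitted with edgeR 4.0.16 (R 4.3.3), with TMM factors and 1 mean per group, and YTHDF1 RIP was contrasted with YTHDF2 RIP. P-values were adjusted by Benjamini-Hochberg over all genes tested and rest on the spread within groups, estimated over all 12 libraries together. Replicates of YTHDF1 RIP differed more from each other than those of YTHDF2 RIP. A chi-square per gene between 2 replicates was 137 to 236 in YTHDF1 RIP and 16.8 to 24.6 in YTHDF2 RIP, at unequal depth. The study's methods divide each replicate's lysate among the RIPs but do not state that the deposited numbers match between groups. Deviations of numbers 1, 2 and 3 from their group means correlated between YTHDF1 and YTHDF2 RIP at 0.070, 0.553 and 0.361. Against input, those of YTHDF1 RIP correlated at 0.09, -0.27 and -0.33 and those of YTHDF2 RIP at 0.19, -0.33 and -0.32. Those of YTHDF3 RIP correlated with input at 0.84, 0.54 and 0.81. Replicate 2 of YTHDF1 and of YTHDF2 RIP correlated with input 3 at 0.47 and 0.57, and with YTHDF3 RIP replicate 3 at 0.43 and 0.56. With YTHDF3 RIP replicate 2 they correlated at -0.34 and -0.32. Under numbers 2 and 3 the block over 12 libraries thus joins libraries whose deviations ran in opposite directions. Whether these libraries come from 1 lysate was not tested. The study's methods use no block, so the block is an alternative. Calls needed a 2-fold difference and an adjusted p no higher than 0.05. The quasi-likelihood fit was tested on simulated data with the same spread in all groups and no shared lysate, so that test does not cover unequal spread. Genes without a deposited class (276 of 16820 tested) were left out of the protein-coding and non-coding counts. Transcript features came from GENCODE vM21 on GRCm38, with 1 transcript per gene, and miRNA sequences from RefSeq (GRCm38.p6).

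Genes named in the text were, among called genes whose groups did not overlap and whose mean normalized count reached 100, the 12 largest log2 fold changes per direction among protein-coding genes with ordinary symbols, 8 among non-coding genes and 3 among protein-coding genes with Gm or Rik symbols. From each list the member with the highest level was named with up to 3 called members per direction, together with the highest called gene of each class, the Ythdf genes and the RNAs followed by the study. Members, lists and tests were chosen with earlier results of these data known. The hosts of miRNA-annotated genes and those genes themselves were named after their values were seen. Some genes that the rule selects are not reported here.

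Alternatives were DESeq2 1.42.0, its size factors in edgeR, library size alone, TMM before the filter or over protein-coding genes, no filter beyond 1 count, a minimum mean of 50, the 6 RIP libraries alone, a replicate block, removal of a smooth trend on exonic length (span 0.3), counts thinned to the shallowest library and each library left out. Leaving out YTHDF1 RIP replicate 1 and YTHDF2 RIP replicate 3 together was added after seeing the data. Intervals for shares of single libraries were not computed, since between-library spread is given.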

Additional observations from a re-analysis of the deposited data

How the results depend on the processing

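The protein-coding share differed by 19.2 to 22.4 percentage points and the correlation of length with log2 fold change in protein-coding genes stayed between 0.246 and 0.341 whichever library was left out. With library size as the only scaling, 815 protein-coding and 211 non-coding genes were called higher in YTHDF1 RIP and 2146 and 562 higher in YTHDF2 RIP. A minimum mean of 50 left 12702 genes and 167 and 101 non-coding calls. Leaving out single libraries gave 1181 to 1641 and 564 to 1322 protein-coding calls, and 260 to 389 and 195 to 581 non-coding calls, in the order YTHDF1 and YTHDF2 RIP. The main fit took its estimate of spread from all 12 libraries. With the 6 RIP libraries alone there were 1259 and 669 protein-coding and 239 and 188 non-coding calls. In that fit 2842 genes passed the adjusted p at any fold change, beside 4540 in the main fit. The replicate block gave 1482 and 744 protein-coding and 316 and 273 non-coding calls over 12 libraries, and 1439 and 994 and 309 and 306 over the 6 RIP libraries. Of 153 named genes, 1 lost its call under the first (Rny1), and 2 lost (Rny1, Eif4g1) and 2 gained one (Col1a2, Igfbp2) under the second. The block changed no other call of these genes. DESeq2, and its size factors in edgeR, changed the call of 0 of the 153 genes. The sign turned in 9 genes not called, of which the cause was not tested, and 1 of these values passed the test, that of Rian with the length trend removed (edgeR adjusted p = 0.00319). Atp5a1 had 0.0065 with TMM before the filter and 0.0065 with no filter, 0.051 with the length trend removed, and -0.24 to 0.086 over the single libraries left out. Olig1 had -0.055 to 2.005 over these, and -0.35 without both YTHDF1 RIP replicate 1 and YTHDF2 RIP replicate 3. Rian had -0.28 with library size alone, -1.11 with the length trend removed and -0.0014 without both libraries. Rpl4 had -0.42 with library size alone, -0.043 with TMM over protein-coding genes, -0.021 with the minimum of 50, -0.052 with the 6 RIP libraries and the block, and -0.48 to 0.31 over single libraries. Shank1 had -0.36, -0.039, -0.013 and -0.35 with library size alone, protein-coding TMM, the minimum of 50 and the length trend removed, and -0.14 to 0.23 over single libraries. Ythdf1 had -0.18 with library size alone and -0.043 to 0.42 over single libraries. Camk2b had -0.17 with library size alone and -0.038 with the length trend removed, and Slc1a2 -0.085 and -0.28 under these and -0.30 to 0.64 over single libraries. Psmd2 had -0.025 with DESeq2, -0.026 with its size factors, -0.48 with library size alone, -0.13 with protein-coding TMM, -0.11 with the minimum of 50, -0.048 with the 6 RIP libraries, -0.052 with the block added to these, -0.00068 with the block on 12 libraries, -0.062 with thinned counts, -0.067 without both libraries and -0.19 to 0.097 over single libraries. Depth limits low genes most in YTHDF2 RIP, with 6020072 to 9259893 counts per library.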

Other observations

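Among the 276 tested genes without a deposited class, 16 of 36 annotated in GENCODE as small nuclear RNAs were called, all higher in YTHDF1 RIP, with a median log2 fold change of 2.56. The 36 summed to 14892, 2227 and 750.3 CPM in YTHDF1 RIP and to 2644, 1384 and 2444 CPM in YTHDF2 RIP, so YTHDF1 RIP replicate 1 stood far above the other 5 libraries. Without it 0 of the 36 were called by edgeR or DESeq2 (median 0.27 in edgeR), with 2 past an unadjusted p of 0.05 in edgeR. With the replicate as a block, or without YTHDF2 RIP replicate 1 or 2, 0 of the 36 were called by edgeR and 1 to 18 were past that p, and without YTHDF2 RIP replicate 3, 2 were called. Of 42 lincRNAs, 12 and 5 were called in the 2 directions, and 6 to 12 and 3 to 6 when single libraries were left out, the fewest without YTHDF2 RIP replicate 1. Ribosomal RNA loci had a median of -1.61, with 2 of 31 called higher in YTHDF2 RIP and 2 to 11 when single libraries were left out, the most without YTHDF2 RIP replicate 1. Loci of the class TEC were called 57 and 112 times of 333, although the class took 0.153% ± 0.033 of counts in YTHDF1 RIP and 0.111% ± 0.011 in YTHDF2 RIP.

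By chromosome, the share of protein-coding genes called higher in YTHDF1 RIP went from 6.98% on chromosome 11 to 17.4%, 17.9% and 18.4% on chromosomes 14, 18 and X, beside 11.4% of all protein-coding genes and leaving aside chromosome Y with 4 tested genes. Chromosome was looked at after the values were seen and was not tested.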
